A study of Solanum lycopersicum with 24 samples.

Results

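RPL8 and eL6 are a pair of nuclear genes for proteins of the large subunit of the cytosolic ribosome. They were taken from the deposited expression table of tomato (Solanum lycopersicum) leaves by their transcript identifiers, NM_001247186.2 for RPL8 and XM_004250206.4 for eL6, and are 2 of its 45845 transcripts. The symbol RPL8 comes from a RefSeq names table, which also lists L2 and rpl2 as its synonyms, and a gene called RPL2 is among those to which the study normalised its qPCR. The same table knows the other transcript only as LOC101252946, and the name eL6 comes from the study, which listed it among the hub genes of a network built on polysome to total RNA ratios. eL6 was thus chosen by its total RNA and polysome values, and RPL8 was paired with it when results of these data were known. The values of both genes in those fractions are given below as a description with no test, and both were tested in the monosome libraries, which the network did not use.

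Leaves of 28-day-old plants of the selection line YaLF were used, and all groups share this line and age. Hardening plants were kept in the cold for 5 days (6 °C by the sample labels, 4 °C by the study's methods), Stress plants were exposed to 0 °C over 2 h, Combo plants were hardened first and then given the same exposure, and Control plants received neither (growth was at 25 °C by the labels and by the methods on cultivation, while the experimental design gives 22 °C for Control). Each condition was sequenced as polysomes (mRNA carrying several ribosomes), monosomes (mRNA carrying 1 ribosome) and total RNA, with 2 libraries per combination and 24 in all. The methods call the 2 libraries technical repetitions whereas the column headings call them biological replicates, so a p-value measures only the spread between them, which may be technical. Leaves of the plants exposed to 0 °C were sampled 2 h after the others, and for contrasts across this line the time of day and the treatment cannot be told apart.

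Ribosomal proteins are made in near equal amounts and assembled with rRNA in the nucleolus, and their mRNAs are among the most abundant of growing tissue. RPL8 belongs to the uL2 family, which lies close to the peptidyl transferase centre of the ribosome, while eL6 belongs to a family that bacterial ribosomes lack. In plants, as in animals, the loading of ribosomal protein mRNAs onto polysomes is known to change with light, oxygen and energy supply, often for many of them together.

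The values are TPM, in which reads are corrected for transcript length and brought to a sum of 1000000 per library. Depth is not kept in this unit, so no counting interval is given. A library dominated by a few transcripts has lower TPM for all others, and the 10 most abundant transcripts took 11.0 to 60.0% of polysome libraries, 10.3 to 68.9% of monosome libraries and 6.67 to 15.9% of total RNA libraries. The values of a library were for this reason rescaled by 1 factor (0.41 to 1.38 in polysomes, 0.42 to 1.37 in monosomes, 1.26 to 1.71 in total RNA). The factors of Control were 0.47 and 0.41 in polysomes and 0.44 and 0.42 in monosomes. Those of Combo were 1.38 and 1.34 in polysomes and 1.33 and 1.37 in monosomes. Combo against Control in these fractions thus depends strongly on the scaling. Log2 changes below are of scaled TPM + 1, which understates changes of low genes, and levels are given as deposited unless called scaled. The 7 RBCS and CAB genes taken as leaf markers were above 0 in every library. The lowest value among them was 13.7 TPM, for Cab-3C. CAB12, a CAB gene not among these 7, was as low as 0.73 TPM in ribosome fractions labelled Stress and Combo. In bulk leaf tissue, fewer cells of a type and less RNA per cell cannot be told apart.

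In 8 of the 24 libraries the labels did not match the expression of 4 genes that mark hardening. LE25, a late embryogenesis abundant protein gene, had 861 to 1883 TPM in the 4 total RNA libraries of Hardening and Combo, against 0.92 to 2.66 TPM in those of Stress and Control. In polysomes and monosomes it had 421 to 820 TPM in the 8 libraries labelled Stress and Combo, against 0.73 to 15.3 TPM in the 8 labelled Hardening and Control. Cab-1D, a chlorophyll a/b-binding protein gene, showed the opposite pattern, with 16.3 to 18.1 TPM in Hardening and Combo total RNA and 3458 to 4117 TPM in Stress and Control total RNA. In the ribosome fractions it had 14.9 to 54.9 TPM in libraries labelled Stress and Combo and 812 to 7960 TPM in those labelled Hardening and Control. AKR4B and CAB12 divided the libraries the same way. The ribosome libraries named for Hardening and for Stress are thus called "labelled Hardening" and "labelled Stress" throughout, and no sample was moved. Combo against Control uses none of them and is the comparison on which the text leans for polysomes and monosomes.

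**Figure D1:**
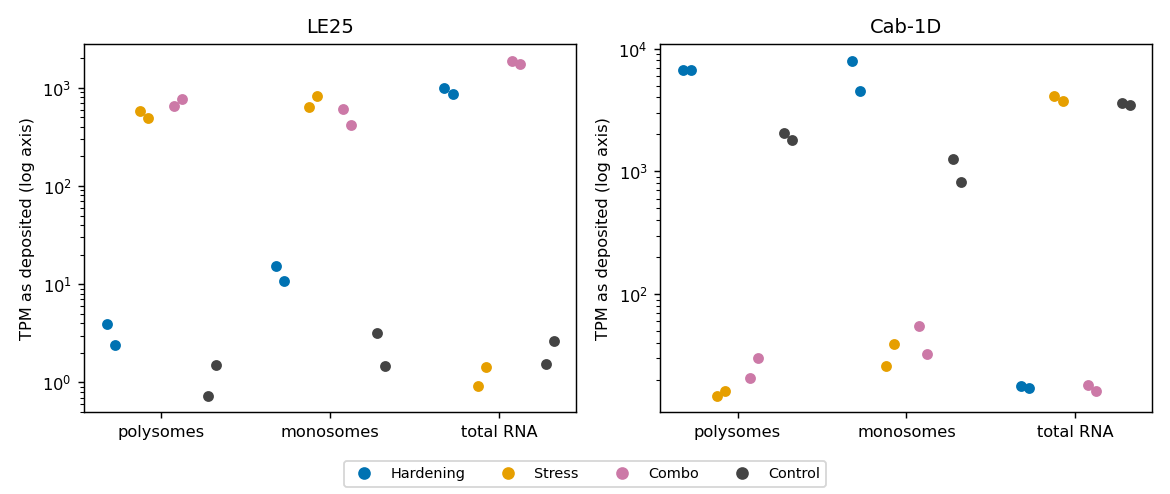
TPM as deposited, on a log axis, of LE25 and Cab-1D in each of the 24 libraries (points, 2 per condition), by fraction and by the condition on the label. In polysomes and monosomes the libraries labelled Stress lie with Combo and those labelled Hardening lie on the side of Control, whereas in total RNA Hardening lies with Combo.

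In total RNA, both genes were higher in plants that had spent 5 days in the cold. RPL8 had 376.8 and 387.1 TPM in Hardening, 239.2 and 213.7 TPM in Stress, 435.8 and 432.1 TPM in Combo, and 192.8 and 188.2 TPM in Control. eL6 had 601 and 611 TPM in Hardening, 289 and 281 TPM in Stress, 644 and 659 TPM in Combo, and 228 and 241 TPM in Control. For both genes Control was lowest, followed by Stress, Hardening and Combo, and no library of a condition overlapped with a library of another condition, as deposited or scaled. Groups of 2 that do not overlap are common in this table: 38.9% of the 22027 transcripts tested were higher without overlap in Hardening against Control, 30.9% in Stress against Control, 40.7% in Combo against Control, 28.7% in Combo against Hardening and 40.1% in Combo against Stress.

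**Figure D2:**
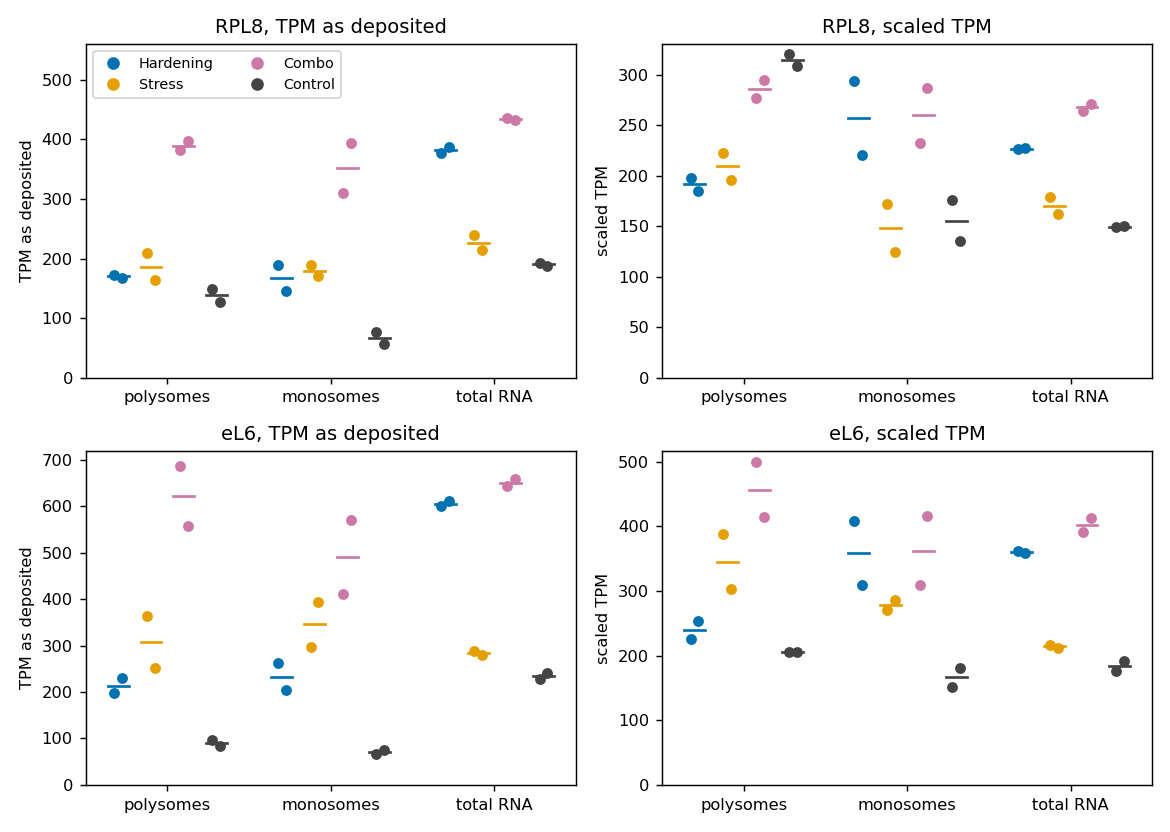
TPM as deposited (left) and scaled TPM (right) of RPL8 and eL6 in each library (points) with the mean of 2 libraries (lines), by fraction and labelled condition. In total RNA both genes are highest in Combo, and in scaled polysome values RPL8 is highest in Control while eL6 is highest in Combo.

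On the scaled values, RPL8 was higher by 0.59 (log2, SE 0.06) in Hardening than in Control and by 0.80 (SE 0.06) in Combo than in Control. The changes of eL6 were larger, 0.96 (SE 0.06) and 1.08 (SE 0.06). The 0 °C treatment alone gave 0.17 for RPL8 and 0.20 for eL6 in Stress against Control. Added to hardening, it gave 0.20 for RPL8 and 0.12 for eL6 in Combo against Hardening. The difference between these 2 effects of 0 °C was 0.04 (SE 0.09) for RPL8 and -0.08 (SE 0.09) for eL6. Combo against Stress, in which both groups had the 0 °C treatment, gave 0.63 for RPL8 and 0.88 for eL6.

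These changes were not among the largest of the leaf. Of all transcripts, 25.5% changed by more than RPL8 did in the upward direction in Hardening against Control and 15.1% by more than eL6. In Combo against Control the shares were 21.4% for RPL8 and 14.3% for eL6. The median transcript changed by -0.01 in Hardening against Control and by -0.00 in Combo against Control after scaling, against 0.33 and 0.32 as deposited, so both genes lay above the median by either reading.

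The other ribosomal protein genes reported here by an upper-case symbol were RPL3 and RPL37 of the large subunit and RPS25 of the small subunit. Genes that the names table knows only by a LOC number, as it does eL6, are not among them, so these 3 do not stand for the whole family. RPL3, which like RPL8 reaches towards the peptidyl transferase centre, had 1394 and 1297 TPM in Hardening, 711 and 604 TPM in Stress, 1386 and 1258 TPM in Combo, and 612 and 536 TPM in Control. All 3 genes were higher in Hardening than in Control at an adjusted p under 0.05 (limma, Benjamini-Hochberg), as were 28.8% of all transcripts tested. None passed the log2 limit of 1 that defines Up, which 13.2% of transcripts did. In Combo against Control all 3 were higher (31.4% of transcripts) with a median change of 0.81, again with none Up (15.2% of transcripts), and in Combo against Stress all 3 were higher (30.3% of transcripts) with a median of 0.70. In Stress against Control (8.3% of transcripts higher) and in Combo against Hardening (8.41% higher), 0 of 3 passed in limma, 0 also at an unadjusted p under 0.05, and their medians were -0.095 and -0.057. RPL3 (0.81, adjusted p = 0.000542) and RPS25 (0.82, adjusted p = 0.00493) had the larger changes in Combo against Control, and RPL37 (0.40, adjusted p = 0.00932) the smaller. The change of eL6 was the highest of the 9 genes of translation named here, and that of RPL8 was in sixth place from the top.

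The lower-case symbols rpl38 and rps16 were kept apart, since such symbols often mark organelle genes and the table does not say. In Combo against Control, rpl38 rose by 0.50 (adjusted p = 0.00105) and rps16 by 0.93 (adjusted p = 5.02e-05). ubi3, whose synonym RPS27A names a fusion of ubiquitin with a small subunit protein, rose by 0.85 (adjusted p = 0.00105). LeEF-1, an elongation factor 1-alpha gene of the kind that brings aminoacyl-tRNA to the ribosome, rose by 0.79 (adjusted p = 7.92e-05). Transcripts of the kinds named for the qPCR of the study (RPL2, EF-1-alpha and UBI) were thus higher in Combo total RNA than in Control, also under each scaling. RPL8 was not tested there, and whether the primers of the study match these transcripts was not checked.

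In monosomes, eL6 was higher in Combo than in Control, whereas the change of RPL8 did not pass the test. eL6 had 410.5 and 571 TPM in Combo monosomes, against 67.0 and 75.5 TPM in Control. Scaled, these are 308.8 and 416.0 in Combo, against 152.1 and 180.1 in Control, and the groups did not overlap (44.6% of transcripts were higher without overlap). The change was 1.11 (SE 0.24, adjusted p = 0.00988, limma), which makes eL6 Up, as were 24.2% of the 17387 transcripts tested. RPL8 had 309 and 394 TPM in Combo monosomes, against 77.3 and 56.6 TPM in Control. Scaled, it had 232.6 and 286.8 in Combo and 175.5 and 135.1 in Control, and the change of 0.74 (SE 0.27) had an adjusted p of 0.0606. The median transcript changed by 0.34 in this contrast, so that 28.0% of transcripts changed by more than eL6 and 38.1% by more than RPL8.

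The Up call for eL6 depends on the libraries used and on the scaling. Under median ratio scaling its change was 0.96 (adjusted p = 0.0205, limma), so it passed on p alone and was not Up. Without replicate 2 of Combo monosomes its change was 0.87, under the log2 limit of 1. With 1 library left out at a time its change ran from 0.87 to 1.31. It passed on p without the libraries labelled Hardening and Stress. Over all alternatives its adjusted p ran from 0.00011 to 0.0685. RPL8 passed as deposited (2.38, adjusted p = 0.000175), where the median transcript was itself higher by 1.57, and its adjusted p over the alternatives ran from 0.000175 to 0.266.

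Of the monosome libraries whose labels are in doubt, those labelled Hardening had 189 and 145 TPM of RPL8 and 263 and 203 TPM of eL6. Those labelled Stress had 189 and 171 TPM of RPL8 and 298 and 393 TPM of eL6. Against Control, eL6 was higher by 1.10 (adjusted p = 0.0336) in libraries labelled Hardening, where 8.14% of transcripts were Up, and by 0.75 (adjusted p = 0.0423) in libraries labelled Stress, where 24.9% of transcripts were higher. Neither call held when any 1 of its 4 libraries was left out or when only the 2 conditions were fitted. RPL8 changed by 0.72 (adjusted p = 0.128) in libraries labelled Hardening and by -0.08 (adjusted p = 0.846) in those labelled Stress. In Combo against either, neither gene passed the test, at 0.02 and 0.82 for RPL8 (adjusted p = 0.967 and 0.568) and at 0.01 and 0.36 for eL6 (adjusted p = 0.981 and 0.933). The difference between the 2 effects of 0 °C, formed by label, was 0.10 for RPL8 (adjusted p = 0.929) and -0.74 for eL6 (adjusted p = 0.359). Hardly any transcript passed in Combo against libraries labelled Stress (1 of 17387, lower, or 0.00575%) or in the difference between the effects of 0 °C (0.0115% higher and 0.0633% lower), so a missed threshold there says little of these genes, whereas 14.1% were higher in Combo against libraries labelled Hardening.

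Of the 3 other ribosomal protein genes, RPS25 was Up in Combo monosomes against Control (1.66, adjusted p = 0.00328) and RPL37 passed on p alone (0.92, adjusted p = 0.031). RPL3 (0.15, adjusted p = 0.647) did not pass. Among all transcripts 26.5% were higher on p alone. ubi3 (1.44, adjusted p = 0.00607) and LeEF-1 (1.29, adjusted p = 0.0126) were Up. Under median ratio scaling RPL37 no longer passed (0.77, adjusted p = 0.067, limma), while RPS25, ubi3 and LeEF-1 stayed Up.

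In polysomes the genes parted. RPL8 had 382 and 397 TPM in Combo polysomes, against 149 and 126 TPM in Control, and eL6 had 688 and 558 TPM in Combo, against 96.1 and 84.1 TPM in Control. As deposited, both were higher in Combo without overlap. After scaling, RPL8 had 276.8 and 295.3 in Combo and 320.6 and 308.6 in Control, lower in Combo without overlap (32% of transcripts), while eL6 had 498.6 and 414.8 in Combo and 206.1 and 205.4 in Control, higher in Combo without overlap (44.6% of transcripts). The log2 changes were -0.11 (SE 0.10) for RPL8 and 1.17 (SE 0.15) for eL6, beside a median of 0.23 over all transcripts. The change of RPL8 was -0.27 under median ratio scaling, and ran from -0.27 to -0.09 with 1 library left out at a time. As deposited the changes were 1.495 for RPL8 and 2.77 for eL6, beside a median of 1.44. In both readings RPL8 had the lowest change of the 9 genes named here and eL6 the second highest, after rps16.

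**Figure D3:**
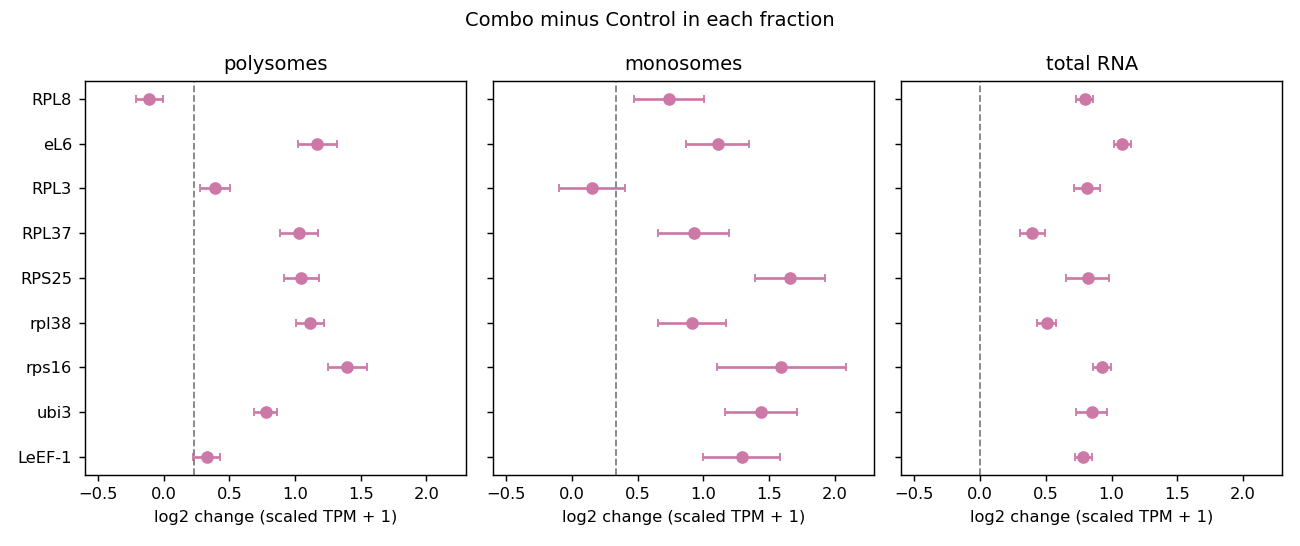
Log2 change of scaled TPM + 1 in Combo minus Control (points, with SE from limma as bars) for RPL8, eL6, the 3 other ribosomal protein genes with upper-case symbols, rpl38, rps16, ubi3 and LeEF-1, in polysomes, monosomes and total RNA. The dashed line is the median of all transcripts. RPL8 lies at 0.74 in monosomes and 0.80 in total RNA but at -0.11 in polysomes, the lowest of the 9 genes there, and eL6 lies between 1.08 and 1.17 in all 3 fractions.

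All 3 other ribosomal protein genes were higher in Combo polysomes than in Control at an adjusted p under 0.05 (31.5% of transcripts), and RPL37 (1.03, adjusted p = 0.00127) and RPS25 (1.05, adjusted p = 0.000916) were Up (22.8% of transcripts). RPL3 (0.39, adjusted p = 0.0264) had the smallest change of the 3, and under median ratio scaling its change was 0.23 with an adjusted p of 0.143. RPL8 was set apart from them within each library as well, by a measure that no scaling can alter. Its log2 level against the geometric mean of the 3 genes was -1.28 and -1.17 in Combo polysomes, against -0.36 and -0.22 in Control polysomes. In all other groups the libraries lay between -2.08 and -0.87. RPL8 thus stood closest to these 3 genes in Control polysomes.

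Polysome libraries whose labels are in doubt had intermediate levels as deposited. RPL8 had 172 and 167 TPM in those labelled Hardening and 208 and 163 TPM in those labelled Stress. eL6 had 197.5 and 229.4 TPM in those labelled Hardening and 363 and 252 TPM in those labelled Stress. Scaled, RPL8 lay below Control in both, by 0.67 and 0.59 on the log2 scale, although as deposited it lay above Control by 0.30 and 0.42. eL6 lay above Control by 0.26 in those labelled Hardening and 0.73 in those labelled Stress when scaled, by 0.030 and 0.68 under median ratio scaling, and by 1.23 and 1.74 as deposited. With 1 library left out at a time, the scaled values of eL6 ran from 0.092 to 0.34 and from 0.37 to 0.92.

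The study defines a translational ratio as the log2 of polysome over total RNA. In Control leaves RPL8 had the highest ratio of the 9 genes and in Combo leaves it did not. Scaled, the ratio of RPL8 was 0.07 (SE 0.08) in Combo and 1.07 (SE 0.08) in Control, a difference of -0.99 (SE 0.12). For eL6 it was 0.16 in Combo and 0.16 in Control (SE 0.12 each), a difference of -0.00 (SE 0.17). In Control, 5.42% of transcripts had a higher ratio than RPL8 and 28.8% a higher ratio than eL6. In the difference between Combo and Control, 93.7% of transcripts lay above RPL8 and 62.5% above eL6.

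The sign of these values depends on the scaling. As deposited, the ratio of RPL8 was -0.16 in Combo and -0.47 in Control with a difference of 0.31, and that of eL6 was -0.07 in Combo and -1.37 in Control with a difference of 1.30. The median of all transcripts moved along, and lay at -0.22 in Combo and at -1.37 in Control as deposited. Relative to the median, the difference of RPL8 between Combo and Control was -1.20 with scaled values and -0.81 as deposited. The difference of eL6 relative to the median was -0.21 with scaled values and 0.18 as deposited. RPL8 had the highest ratio of the 9 genes in Control and the lowest difference between Combo and Control under all 3 scalings. Its first place in Control was narrow, since ubi3 came close behind. Under median ratio scaling RPL8 had 1.30, ubi3 1.23 and LeEF-1 1.02 in Control. As deposited they had -0.47, -0.54 and -0.75, so a high ratio in Control was not particular to RPL8.

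**Figure D4:**
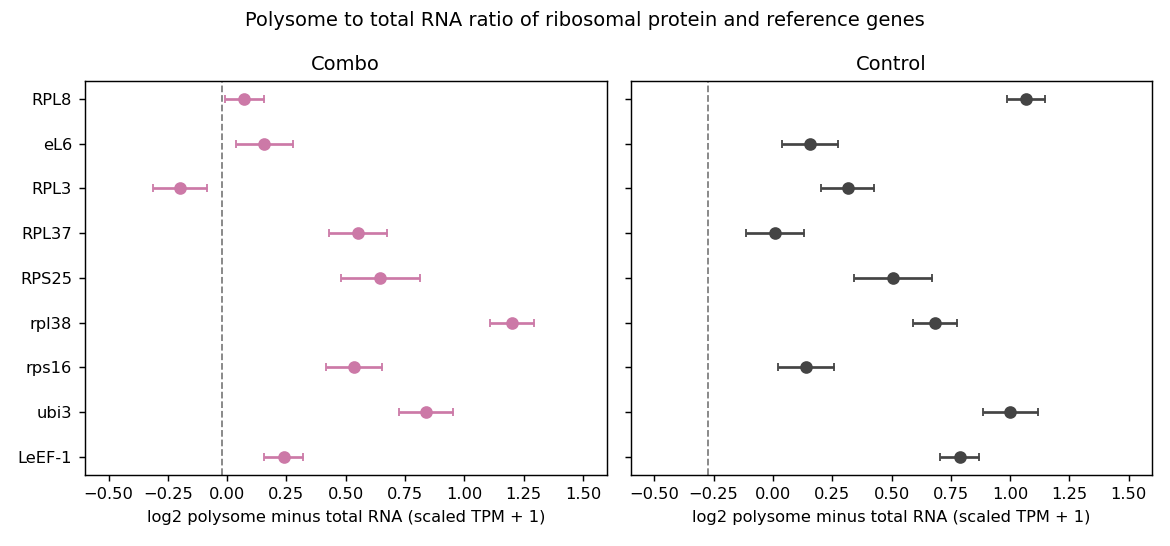
Log2 polysome minus total RNA (scaled TPM + 1, points with SE from limma as bars) in Combo and in Control for RPL8, eL6 and 7 other genes of translation. The dashed line is the median of all transcripts. RPL8 is the highest gene in Control at 1.07 and lies at 0.07 in Combo, whereas eL6 is at 0.16 in both.

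Of the 3 other ribosomal protein genes, 0 passed the limma test for a difference in translational ratio between Combo and Control, and 2 had an unadjusted p under 0.05 (10.6% of the 20149 transcripts were higher and 4.54% lower on p alone). RPL3 came closest among those with a lower ratio (-0.51, adjusted p = 0.0542) and RPL37 among those with a higher one (0.54, adjusted p = 0.0609). LeEF-1 fell by 0.55 (adjusted p = 0.012) and rpl38 rose by 0.52 (adjusted p = 0.0257), while as deposited LeEF-1 was higher by 0.76 and rpl38 by 1.83. Within Combo 2 of the 3 genes had a ratio above 0 by the test (RPL37 0.55 and RPS25 0.65, beside 9.33% of transcripts), and within Control also 2 of 3 (RPS25 0.51 and RPL3 0.32, beside 13.7% of transcripts), whereas as deposited all 3 lay below 0 in Control.

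Polysomes against monosomes compare mRNA with several ribosomes to mRNA with 1. For RPL8 this difference was 0.15 (SE 0.20) in Combo and 0.99 (SE 0.20) in Control. With 1 library left out at a time it ran from 0.0051 (without replicate 1 of Combo monosomes) to 0.30 in Combo and from 0.81 to 1.17 in Control. For eL6 it was 0.35 in Combo and 0.28 in Control (SE 0.20 each). In Control, 16.1% of transcripts had a higher difference than RPL8, and both this measure and the translational ratio use the same Control polysome libraries. Of the 3 other ribosomal protein genes, 0 passed in Combo and 0 in Control (also 0 in each at an unadjusted p under 0.05), while 0.453% of transcripts in Combo and 14.5% in Control were higher on p alone (limma). LeEF-1 had 0.12 (adjusted p = 1) in Combo and 1.08 (adjusted p = 0.00609) in Control.

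The quotient of eL6 to RPL8 within a library needs no scaling and sets 2 length-corrected levels against each other. In polysomes it was 1.80 and 1.40 in Combo, against 0.64 and 0.67 in Control. It was 1.15 and 1.37 in polysome libraries labelled Hardening and 1.74 and 1.55 in those labelled Stress. Control polysomes were the only group in which both libraries held more RPL8 than eL6, and they did not overlap with any other polysome group. In monosomes the quotient was 1.39 and 1.40 in libraries labelled Hardening, 1.58 and 2.31 in those labelled Stress, 1.33 and 1.45 in Combo and 0.87 and 1.33 in Control. Combo and Control monosomes overlapped, since the lower Combo library (1.328) lay below the higher Control library (1.333).

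**Figure D5:**
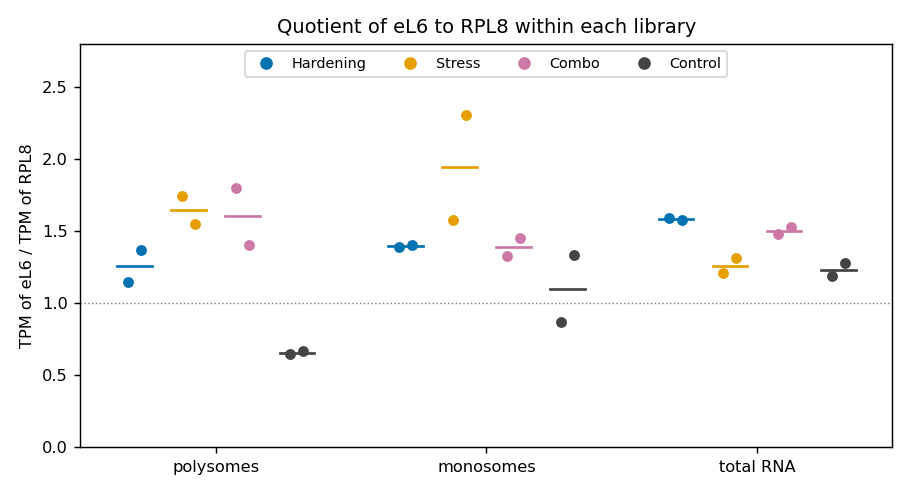
Quotient of the TPM of eL6 to that of RPL8 in each library (points) with the mean of 2 libraries (lines), by fraction and labelled condition. The dotted line marks equal levels. Control polysomes lie at 0.64 and 0.67, and all other polysome libraries lie at 1.15 or above.

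In total RNA the quotient was 1.59 and 1.58 in Hardening, 1.21 and 1.31 in Stress, 1.48 and 1.53 in Combo, and 1.19 and 1.28 in Control. Hardening and Combo lay above Stress and Control without overlap, and Stress and Control overlapped.

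Over the 12 combinations of fraction and condition, RPL8 had its highest scaled mean in Control polysomes (315 ± 8.48, SD, n = 2), followed by Combo polysomes (286 ± 13.1) and Combo total RNA (268 ± 4.42). The first 3 did not overlap with each other, but Combo polysomes overlapped with Combo monosomes and with monosomes labelled Hardening. Combo total RNA, Combo monosomes, monosomes labelled Hardening and Hardening total RNA followed each other with overlap. The lowest means were those of monosomes labelled Stress (148 ± 33.7), Control total RNA (149.6 ± 0.44) and Control monosomes (155 ± 28.6), which overlapped. As deposited, Combo total RNA was highest (434 ± 2.64) and Control monosomes were lowest (67.0 ± 14.6).

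For eL6 the highest scaled mean was in Combo polysomes (457 ± 59.3). These did not overlap with Combo total RNA (402 ± 15.8), which came next, but did overlap with Combo monosomes. Combo total RNA and the next 4 groups formed a run of overlapping neighbours. The lowest was in Control monosomes (166 ± 19.8), which overlapped with Control total RNA (184 ± 10.4). As deposited, Combo total RNA was highest (651 ± 10.9) and Control monosomes were lowest (71.2 ± 6.02). By rank of TPM in the library, RPL8 held places 405 to 743 in polysomes, 470 to 973 in monosomes and 393 to 747 in total RNA. eL6 held places 221 to 687 in polysomes, 293 to 762 in monosomes and 207 to 620 in total RNA.

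The pair followed each other in total RNA and less so over the fractions. Over the 8 total RNA libraries, their log2 levels had a Pearson correlation of 0.98, and over the 12 group means of 0.61. These are descriptions over libraries that share their scaling and fall into condition groups. In total RNA, 7959 other transcripts, with or without a symbol, had a mean scaled TPM of 10 or more. Of these, 25.8% had a correlation of 0.9 or more with RPL8 and 29.3% with eL6, so such a value is common there. Among those with a symbol, the 3 highest were TOC75-III, Hsp90-1 and EXLA1 for RPL8, and tft10, GAPC2 and FBA8 for eL6. Over the 12 means, none of 7783 transcripts reached 0.9 with RPL8. The genes with a symbol most like it were NDK (0.82), PHYA (0.77) and ArcA2 (0.76). For eL6 they were the heat shock protein genes Hsc70.2 (0.97) and Hsp90-1 (0.97) and the small GTPase gene RAN2B (0.95). Of the 7783 transcripts, 63 reached 0.9 with eL6.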

How the data were processed

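Per the labels and methods, poly(A) RNA of total RNA, monosomes and polysomes (sucrose gradients) of tomato leaves was sequenced from stranded libraries. The submitters' processing notes name bcl2fastq 2.20 and kallisto, and the methods name assembly SL3.1. The authors deposited kallisto TPM per transcript, which keep no depth, so the precision rests on 2 libraries per group and no count model was used. Names came from a RefSeq table of another assembly (SLM_r2.1), which matched 34881 of 45845 transcripts, so coordinates were not used here. Sequences, near copies and promoters were not analysed here.

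Conditions were taken from the labels. Each library was divided by an unweighted trimmed mean of log ratios (30% of ratios and 5% of levels trimmed, transcripts of at least 1 TPM in both libraries). Transcripts with a mean of at least 1 were tested on log2(scaled TPM + 1) with limma 3.58.1 in R 4.3.3, with all 4 conditions of a fraction (8 libraries) or 2 fractions (16 libraries) in a fit, an intensity trend and Benjamini-Hochberg adjustment over all transcripts. Up required an adjusted p under 0.05 and a log2 change over 1. The fits were tested on simulated data. Figures used matplotlib 3.10.9 and pandas 2.3.3 under Python 3.11.15.

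1 item of the ribosomal protein list is not reported here. The members and lists were chosen with earlier results of these data known. The text names both members, the ribosomal protein genes by symbol, matches to the qPCR references and 4 check genes. It also names the 3 transcripts with a symbol that are most like each member. In total RNA, replicate numbers paired the libraries by the correlation of deviations of same-numbered libraries (0.22 to 0.28 over 6 pairs of conditions, limit 0.1), whereas in monosomes (-0.19 to 0.12) and polysomes (-0.04 to 0.03) they did not. Alternatives covered the scaling, pseudocount, filter, sums over the transcripts of a gene, a replicate block, fewer conditions and the omission of each library.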

Additional observations from a re-analysis of the deposited data

Results flagged for a closer look

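RPL8 changed in opposite directions in polysomes and total RNA in 3 contrasts, with every library on its side after scaling. Against Control, it differed by -0.67 in polysomes labelled Hardening and by 0.59 in Hardening total RNA, by -0.59 in polysomes labelled Stress and by 0.17 in Stress total RNA, and by -0.11 in Combo polysomes and by 0.80 in Combo total RNA. The difference between fractions was not tested, since both entered the choice of the genes. The polysome values were above 0 as deposited (0.30, 0.42 and 1.495). As deposited but relative to the median they were -0.68, -0.41 and 0.053, so the sign in Combo depends on the scaling. The scaled value of -0.11 in Combo polysomes was about as large as its SE. All 3 contrasts use the same Control polysome libraries and are not separate observations. Those labelled Hardening and Stress also use polysome libraries whose labels are in doubt.

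The effect of 0 °C on RPL8 in polysomes, formed by label, also had opposite signs. It was -0.59 for Stress against Control and 0.56 for Combo against Hardening. This difference was not tested, it uses the libraries whose labels are in doubt, and as deposited Stress against Control was 0.42.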

How the results depend on the processing

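All log2 values here are of RPL8 or eL6 unless list counts are named, and the cause of a change was not tested. As deposited, RPL8 in monosomes reversed in sign in the libraries labelled Stress against Control (1.43). It passed in libraries labelled Hardening (1.31) and Combo (2.38) against Control. In Combo against libraries labelled Hardening, RPL8 (1.07) and eL6 (1.06) both passed. The median transcript was itself higher, by 1.43 in libraries labelled Stress, 0.60 in those labelled Hardening and 1.57 in Combo against Control. It was higher by 0.95 in Combo against libraries labelled Hardening. Relative to the median, RPL8 in libraries labelled Stress lay at 0.0016, so the reversal is the shift of the whole library. In total RNA as deposited, RPL8 had 1.00, 0.25 and 1.18 in Hardening, Stress and Combo against Control and 0.94 in Combo against Stress, and eL6 had 1.37, 0.28, 1.47 and 1.19. The translational ratio of RPL8 was -0.16 in Combo and -0.47 in Control (difference 0.31) and that of eL6 -0.072 and -1.37 (difference 1.30). Of the 3 ribosomal protein genes, 2 were Up in total RNA in Hardening and in Combo against Control and in Combo against Stress, 3 in Combo monosomes and 2 in the ratio of Combo against Control. The share of all transcripts Up as deposited was not taken, so these counts say little of the genes. The median transcript as deposited rose by 0.33, 0.32 and 0.25 in these total RNA contrasts. In Combo monosomes it rose by 1.57 and in the ratio by 1.12, both past the limit of 1.

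As deposited but relative to the median, total RNA gave RPL8 0.67 and 0.86 and eL6 1.03 and 1.15 in Hardening and Combo against Control, and 0.69 and 0.94 in Combo against Stress, while the ratio was 0.90 for RPL8 and -0.0038 for eL6 in Control (differences -0.81 and 0.18). Scaled and relative to the median it was 1.34 and 0.43 (differences -1.20 and -0.21). Median ratio scaling gave 0.71 and 0.97 for Combo against Stress, 0.11 and 0.14 for Stress against Control in total RNA, 1.30 and 0.39 for the ratio in Control (differences -1.16 and -0.17), 0.93 and 0.61 for eL6 in monosomes labelled Hardening and Stress against Control, both then short of the threshold, and 1 Up gene in Combo against Stress. With that scaling eL6 in Combo monosomes against Control was 0.96, under the log2 limit of 1. Sums over transcripts gave a ratio of 1.15 for RPL8 in Control. With no limit on the change, 3 genes were higher on p alone in each of the 3 total RNA contrasts named above. Of all transcripts, 28.8% were so in Hardening and 31.4% in Combo against Control, and 30.3% in Combo against Stress. In Combo monosomes 2 genes were higher on p alone, beside 26.5% of transcripts.

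eL6 in monosomes labelled Hardening and Stress against Control also lost its call with no filter (1.10 and 0.75, adjusted p = 0.0608 and 0.0777, limma) and with only the 2 conditions (1.05 and 0.75). The replicate block, used although the numbers do not pair monosome libraries, did the same (1.10 and 0.75, adjusted p = 0.0599 and 0.0651) and changed no other call or count named here, total RNA included.

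Leaving out 1 library at a time, eL6 in monosomes against Control ran from 0.87 to 1.31 in Combo. It ran from 0.90 to 1.30 in libraries labelled Hardening and 0.63 to 0.87 in those labelled Stress. In total RNA eL6 ran from 1.03 to 1.14 in Combo, 0.90 to 1.01 in Hardening and 0.15 to 0.26 in Stress against Control. There it also ran from 0.060 to 0.14 in Combo against Hardening and 0.85 to 0.93 in Combo against Stress. RPL8 in total RNA ran from 0.10 to 0.24 in Stress against Control and 0.55 to 0.70 in Combo against Stress. The ratio of eL6 ran from 0.023 to 0.30 in Combo and -0.13 to 0.14 in the difference, its polysome minus monosome value in Combo from 0.14 to 0.56, and the list had 0 to 1 Up genes in Combo against Stress and in Hardening against Control. With 2 libraries per group, the lone library was assumed to vary like the other groups. A pseudocount of 0.1 and the fit without libraries labelled Hardening and Stress moved none of the values above past these limits.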
